A study of Mus musculus with 6 samples.

Results

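The 9 genes described here encode parts of the machinery that builds the blastocoel, the fluid cavity of the blastocyst. They were chosen by symbol from the 55364 genes listed and comprise *Atp1b1* and *Atp1b3* (sodium pump), *Aqp3*, *Aqp8* and *Aqp9* (water channels), and *Tjp1*, *Cldn4*, *Cldn6* and *Cldn7* (tight junctions). All 9 were listed. A gene was tested where 3 or more of the 6 libraries reached 1 TPM, which held for 8 of the 9 and not for *Aqp8*.

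The libraries were made from whole morulae of BDF1 x BDF1 crosses, fertilized in vitro with oocytes of females 8 to 12 weeks old and sperm of males 10 to 12 weeks old. Zygotes of the Yy1 KD group (3 libraries) received an siRNA against *Yy1* by injection into the cytoplasm. The other group is labelled control KD (3 libraries), and the methods do not describe what its zygotes received. Embryos were cultured in KSOM and collected 64 h after insemination. Each library held the total RNA of 10 pooled morulae, so embryos and cell types within a pool are averaged. A single siRNA at 10 µM is described for *Yy1*. Since the libraries are bulk samples, fewer cells of a type and less RNA per cell cannot be told apart. The labels do not say whether the pools came from separate days or litters, so p-values measure the spread between these pools.

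The outer cells of the compacted morula become the trophectoderm, the first epithelium of the embryo. Its sodium pump, a catalytic alpha subunit with a beta subunit that brings it to the membrane, moves sodium toward the inside of the embryo, and water follows through aquaporins. Tight junctions, in which claudins form the strands and ZO proteins tie them to the cytoskeleton, seal the spaces between outer cells so that the fluid stays in. Transcripts for these parts are made before the cavity appears, which is why the morula is the stage at which their levels are of interest.

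*Yy1* itself was at 96.0, 100.2 and 89.8 TPM in control KD and at 8.73, 8.90 and 8.32 in Yy1 KD, which checks the labels. TPM is the number of read pairs on a gene divided by the gene's length, scaled to the same total in every library. It can be compared between genes, and it moves when other genes of the library move. Between 11793509 and 24417789 read pairs per library were recovered on genes, and the deepest library was control KD replicate 2. The 2 pluripotency markers with the highest mean were present in both groups, with *Pou5f1* between 649 and 742 TPM and *Nanog* between 232 and 399.6 TPM. The 7 trophectoderm markers summed to between 727 and 789 TPM in control KD and between 536 and 729 in Yy1 KD. Of the 6 tested 1, *Tfap2c*, was called, and lower in Yy1 KD, beside 4.2% called lower and 1.92% called higher among all genes tested. The 7 inner cell mass and pluripotency markers summed to 1278 to 1507 and 1220 to 1356 TPM, with 0 of 7 called (limma with Benjamini-Hochberg adjustment, the tool used for all calls). An unadjusted p under 0.05 (limma) with a lower level in Yy1 KD, which 14.4% of all genes tested had, occurred in 3, *Sox2*, *Fgf4* and *Tdgf1*. Of these, limma-voom, which called 7.57% of all its genes lower, called 2, *Fgf4* and *Tdgf1*, lower. The Yy1 KD means of *Sox2*, *Fgf4* and *Tdgf1* were 51.0%, 44.4% and 53.5% of control KD. In them each Yy1 KD library lay under each control KD library, as in 17.2% of all genes tested. The groups overlapped in *Pou5f1*, *Nanog*, *Esrrb* and *Klf4*. Markers of cumulus cells, the maternal cells around an oocyte, summed to at most 2.44 TPM in a library, and 5 of 9 were at 0 throughout. Sperm markers summed to at most 2.26 TPM. Two-cell stage markers summed to 8.42 to 23.7 TPM in control KD and 8.63 to 36.7 TPM in Yy1 KD, and oocyte markers to 44.0 to 60.5 and 47.2 to 61.1 TPM.

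All 8 tested members had a lower mean in Yy1 KD, beside 52.8% of all genes tested with a log2 fold change under 0. Of the 8 members 1, *Cldn6*, was downregulated past the threshold (limma adjusted p under 0.05). By log2 fold change, *Cldn6* and *Aqp3* differed most and *Atp1b3* least. The 8 members had a median log2 fold change of -0.51, beside -0.02 over all 17353 genes tested, and 0 members were upregulated, by limma or by limma-voom, a test of the recovered read pairs used as an alternative that called 7.57% of all its genes lower and 4.75% higher. Among all genes tested, 4.2% were called lower and 1.92% higher in Yy1 KD. In 5 of the 8 members, *Aqp3*, *Tjp1*, *Cldn4*, *Cldn6* and *Cldn7*, each Yy1 KD library lay under each control KD library, an arrangement seen in 17.2% of all genes tested, and the reverse arrangement, seen in 12.9% of all genes, occurred in 0 members. These 5 members had an unadjusted p under 0.05 (limma), which 14.4% of all genes had with a lower level in Yy1 KD. These shares are given as the background for single genes, since the 9 genes were put on the list with earlier results of these data known.

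**Figure D1:**
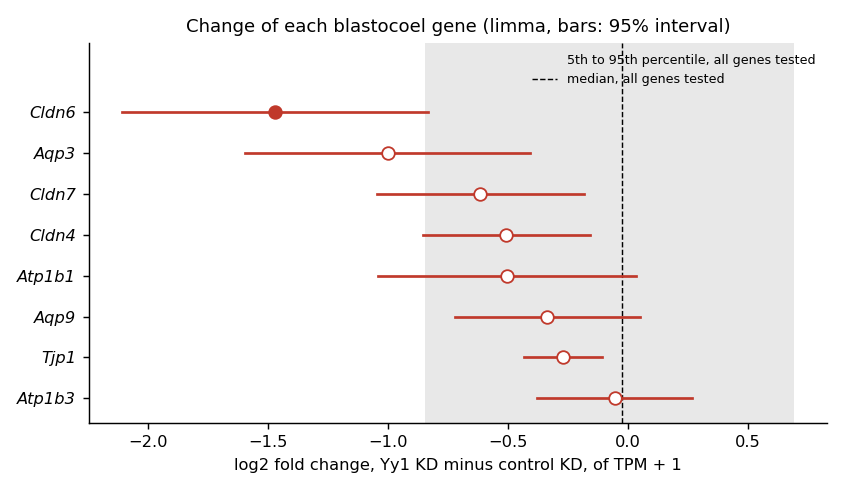
Log2 fold change (horizontal axis, Yy1 KD minus control KD on log2 of TPM + 1) of the 8 tested blastocoel genes, with 95% intervals from limma over 3 libraries against 3; the filled point is the gene called at an adjusted p under 0.05, the dashed line is the median of all 17353 genes tested and the grey band spans their 5th to 95th percentile (-0.85 to 0.69). All points lie left of 0, and *Cldn6* and *Aqp3* lie outside the band.

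The sodium pump was examined through its beta subunits. *Atp1b1* (ENSMUSG00000026576.12; chromosome 1 from 164437109 to 164458355, minus strand, mm10) encodes the beta 1 subunit, one of the subunits that bring the pump to the basolateral membrane of the trophectoderm. It was at 19.6, 16.1 and 26.4 TPM in control KD replicates 1 to 3 and at 16.2, 10.7 and 15.8 TPM in Yy1 KD replicates 1 to 3. The groups overlapped by a narrow margin, because Yy1 KD replicate 1 lay 0.143 TPM above control KD replicate 2. The means were 20.7 ± 5.23 and 14.2 ± 3.10 TPM (SD, n = 3 each), and the log2 fold change was -0.51 (95% interval -1.04 to 0.03, limma adjusted p = 0.235). Of its 3081 nt of exons, 575 nt overlap *Nme7*, and read pairs there were divided between both genes without regard to strand.

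*Atp1b3* (ENSMUSG00000032412.8; chromosome 9 from 96332655 to 96364442, minus strand) encodes the beta 3 subunit and has no exon in common with other annotated genes. Its levels were 65.8, 55.8 and 70.7 TPM in control KD and 53.6, 60.3 and 71.4 in Yy1 KD, so that both the lowest and the highest of the 6 values belonged to Yy1 KD. The means were 64.1 ± 7.58 and 61.7 ± 9.0 TPM (SD, n = 3 each), and the log2 fold change was -0.06 (95% interval -0.38 to 0.27, limma adjusted p = 0.843). The direction turned under 3 of 13 alternatives, reaching 0.04 without Yy1 KD replicate 1, 0.02 without control KD replicate 3 and 0.03 with quantile normalization.

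*Atp1b3* supplied 71.9% to 76.8% of the summed beta subunit TPM in control KD and 74.6% to 81.3% in Yy1 KD, and *Atp1b1* supplied 22.1% to 26.8% and 14.4% to 22.6%. The other beta subunits held 1.14% to 4.35% in a library.

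Among the aquaporins, *Aqp3* (ENSMUSG00000028435.8; chromosome 4 from 41092722 to 41098183, minus strand) was the most abundant of all 9 members. It encodes an aquaglyceroporin, a channel for water and glycerol, and is known from the basolateral side of the trophectoderm. Its levels were 414, 312 and 506 TPM in control KD and 188, 155 and 277 in Yy1 KD. Each Yy1 KD library lay under each control KD library, with 35.0 TPM between the lowest control KD value and the highest Yy1 KD value. The means were 411 ± 97.2 and 207 ± 62.9 TPM (SD, n = 3 each), so that the Yy1 KD mean was 50.3% of the control KD mean.

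The log2 fold change of *Aqp3* was -1.0 (standard error 0.25, 95% interval -1.60 to -0.41), and the adjusted p of 0.0660 (limma) missed the threshold. The exact permutation test, two-sided, gave p = 0.1, the smallest value possible with 3 libraries against 3. The call depended on how the libraries were tested. When genes averaging under 5 TPM were left out, the same fold change had an adjusted p of 0.0482, and limma-voom on the recovered read pairs gave -0.98 with an adjusted p of 0.00718. Of 13 alternatives 3 called *Aqp3*, these and a fit with the replicate number as a block (limma adjusted p = 0.0357). It was called in 0 of the 6 fits that left out 1 library (limma adjusted p between 0.0519 and 0.175). The 250 bases upstream of the annotated start of *Aqp3* are shown because it had the largest difference in TPM, with CpG dinucleotides, of which there are 14, in capitals (RefSeq, GRCm38.p6, chr4:41098184-41098433, minus strand, read 5′ to 3′).
Aqp3 upstream: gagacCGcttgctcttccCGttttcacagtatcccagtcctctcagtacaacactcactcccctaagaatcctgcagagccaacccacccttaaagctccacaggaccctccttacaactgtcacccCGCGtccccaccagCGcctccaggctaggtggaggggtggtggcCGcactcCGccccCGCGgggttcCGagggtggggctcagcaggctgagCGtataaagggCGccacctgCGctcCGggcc

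*Aqp9* (ENSMUSG00000032204.13; chromosome 9 from 71110659 to 71168682, minus strand), another aquaglyceroporin, known from the apical side of trophectoderm cells, was at 41.5, 35.9 and 49.1 TPM in control KD and at 27.4, 33.7 and 38.6 in Yy1 KD. Yy1 KD replicate 3 lay above control KD replicate 2, so the groups overlapped. The means were 42.2 ± 6.60 and 33.2 ± 5.63 TPM (SD, n = 3 each), and the log2 fold change was -0.34 (95% interval -0.72 to 0.05, limma adjusted p = 0.269).

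*Aqp8* (ENSMUSG00000030762.11; chromosome 7 from 123462291 to 123468004, plus strand), a water channel, was listed at 0 TPM in 5 libraries and at 0.128 TPM in Yy1 KD replicate 3, a value that corresponds to 1 read pair. A count of 0 allows up to 3 read pairs, which in the 5 libraries at 0 corresponds to between 0.184 TPM (control KD replicate 2) and 0.367 TPM (control KD replicate 1). The 95% Poisson interval of the 1 pair in Yy1 KD replicate 3 reached up to 5.57 pairs, or 0.711 TPM. No difference was detectable at this depth. The other 9 aquaporins listed, all under the condition for a test, reached at most a mean of 0.367 TPM over the 6 libraries, that of *Aqp11* (0.443 ± 0.205 TPM in control KD, 0.291 ± 0.123 in Yy1 KD; SD, n = 3 each). *Aqp7*, the neighbour of *Aqp3* at a distance of 44582 nt, was at or under 0.54 TPM.

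*Aqp3* held 90.7%, 89.4% and 91.1% of summed aquaporin TPM in control KD and 87.0%, 81.7% and 87.4% in Yy1 KD, and nearly all of the rest was *Aqp9*. The share of *Aqp3* was lower in each Yy1 KD library than in any of control KD. Its mean was 85.4% in Yy1 KD and 90.4% in control KD (two-sided exact permutation test, p = 0.1, Benjamini-Hochberg adjusted p = 0.4 over 4 shares tested). The smallest p this test can give with 3 libraries against 3 is 0.1, so no share could pass the threshold of 0.05. The summed level went from 454 ± 104 to 241 ± 66.9 TPM (SD, n = 3 each).

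The tight junction scaffold *Tjp1* (ENSMUSG00000030516.14; chromosome 7 from 65296165 to 65527781, minus strand) encodes ZO-1, which links claudins to actin. Its levels were 128.0, 121.7 and 120.5 TPM in control KD and 106.5, 98.8 and 101.1 in Yy1 KD. Its libraries agreed more closely than those of any other tested member relative to their mean, and the groups were 14 TPM apart at their nearest values. The means were 123 ± 4.04 and 102 ± 3.93 TPM (SD, n = 3 each). The log2 fold change was -0.27 (standard error 0.07, 95% interval -0.43 to -0.11, limma adjusted p = 0.0692), a small difference that limma-voom called (-0.25, adjusted p = 0.0318). That was 1 of 13 alternatives, and *Tjp1* was called in 0 of the 6 fits that left out 1 library (limma adjusted p between 0.1003 and 0.188).

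*Cldn4* (ENSMUSG00000047501.3; chromosome 5 from 134945119 to 134946934, minus strand, a single exon) was the most abundant claudin. Claudin 4 is a sealing claudin and, with claudin 6, one of the receptors of a bacterial enterotoxin whose binding fragment has been used to open embryonic tight junctions. Its levels were 241, 183 and 231 TPM in control KD and 154, 130.3 and 176 in Yy1 KD. The groups did not overlap and were 7.03 TPM apart. The means were 218 ± 31.0 and 153 ± 22.9 TPM (SD, n = 3 each), and the log2 fold change was -0.51 (95% interval -0.86 to -0.16, limma adjusted p = 0.0948). limma-voom called it (-0.48, adjusted p = 0.0276), as 1 of 13 alternatives. It was called in 0 of the 6 fits that left out 1 library (limma adjusted p between 0.0802 and 0.232).

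*Cldn7* (ENSMUSG00000018569.12; chromosome 11 from 69964779 to 69967885, plus strand), an epithelial claudin of both tight junctions and lateral membranes, was at 140.1, 120.4 and 161 TPM in control KD and at 82.5, 77.0 and 117.5 in Yy1 KD. The nearest values of the groups were 2.92 TPM apart, and the groups did not overlap. The means were 141 ± 20.3 and 92.3 ± 22.0 TPM (SD, n = 3 each), and the log2 fold change was -0.62 (95% interval -1.05 to -0.19, limma adjusted p = 0.0996). limma-voom called it (-0.61, adjusted p = 0.0220), as 1 of 13 alternatives. It was called in 0 of the 6 fits that left out 1 library (limma adjusted p between 0.0508 and 0.244).

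*Cldn6* (ENSMUSG00000023906.3; chromosome 17 from 23679249 to 23682446, plus strand), a claudin of embryonic epithelia, was the member that was downregulated. Its levels were 5.16, 3.94 and 6.62 TPM in control KD and 1.88, 0.845 and 1.06 in Yy1 KD, with no overlap. The means were 5.24 ± 1.34 and 1.26 ± 0.545 TPM (SD, n = 3 each), and the Yy1 KD mean was 24.0% of the control KD mean. The log2 fold change was -1.47 (standard error 0.27, 95% interval -2.11 to -0.83, limma adjusted p = 0.0309; two-sided exact permutation test, p = 0.1), which on log2 of TPM + 1 understates the change of so low a gene.

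*Cldn6* had the fewest reads of the tested members. The values stand for 46, 70 and 85 read pairs in control KD and 25, 8 and 9 in Yy1 KD, and the 95% Poisson interval of the 8 pairs of Yy1 KD replicate 2 ran from 3.45 to 15.8 pairs, which covers counting error only. It met the condition for a test through the 3 control KD libraries, which alone would have sufficed. The adjusted p was 0.0885 with no filter on low values, and it was 0.0940, 0.0627 and 0.109 without control KD replicate 1, 2 or 3, 0.0979 and 0.0809 without Yy1 KD replicate 2 or 3, and 0.0456 without Yy1 KD replicate 1. limma-voom on the read pairs gave -1.94 (adjusted p = 0.0187). The 250 bases upstream of its RefSeq start are shown for the member that passed the threshold, again with CpG dinucleotides, here 9, in capitals (GRCm38.p6, chr17:23679115-23679364, plus strand).
Cldn6 upstream: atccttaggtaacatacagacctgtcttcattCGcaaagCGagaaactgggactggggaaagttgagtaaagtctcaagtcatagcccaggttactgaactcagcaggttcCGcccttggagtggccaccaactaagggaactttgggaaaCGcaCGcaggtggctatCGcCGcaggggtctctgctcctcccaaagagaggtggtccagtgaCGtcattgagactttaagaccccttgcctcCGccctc

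**Figure D2:**
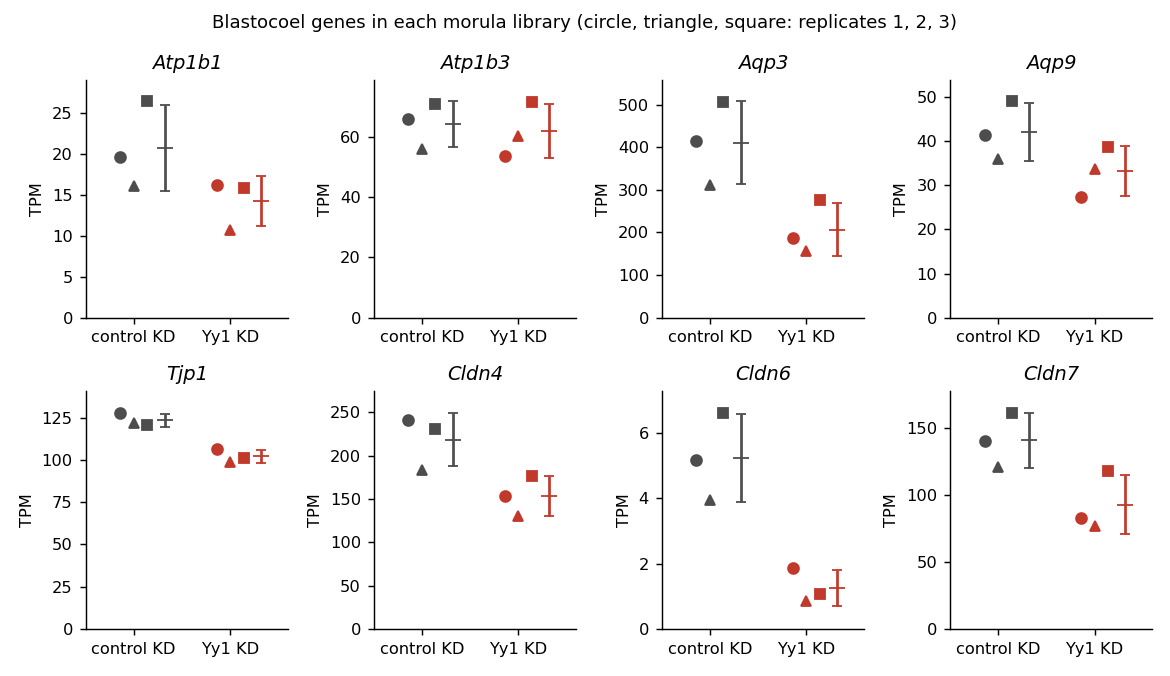
TPM (vertical axes, linear from 0) of the 8 tested blastocoel genes in each library, with circles, triangles and squares for replicates 1, 2 and 3 of control KD (grey) and Yy1 KD (red), and the mean ± SD of 3 libraries beside them. The Yy1 KD points lie under all control KD points in *Aqp3*, *Tjp1*, *Cldn4*, *Cldn6* and *Cldn7*, and the groups overlap in *Atp1b1*, *Atp1b3* and *Aqp9*.

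The share of each abundant claudin in the family overlapped between the groups. *Cldn4* made up 55.6% to 59.9% of the summed TPM of the 33 claudin genes in control KD and 56.4% to 61.3% in Yy1 KD (two-sided exact permutation test, p = 0.5), and *Cldn7* made up 34.8% to 38.8% and 32.9% to 37.7% (p = 0.5, adjusted p = 0.5 for both). The sum of all claudins was 403, 322 and 415 TPM in control KD and 251, 220 and 312 in Yy1 KD, without overlap. *Cldn6* made up 1.22% to 1.59% of it in control KD and 0.338% to 0.748% in Yy1 KD. The share of *Atp1b3* among beta subunits had p = 0.3 in the same exact permutation test (adjusted p = 0.5). With 3 libraries per group this test cannot give a p under 0.1, so the threshold of 0.05 was out of reach for each share. A p that misses it therefore does not show that shares were alike. *Cldn4* and *Cldn7* made up most of the claudin sum, so their shares are not separate tests.

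**Figure D3:**
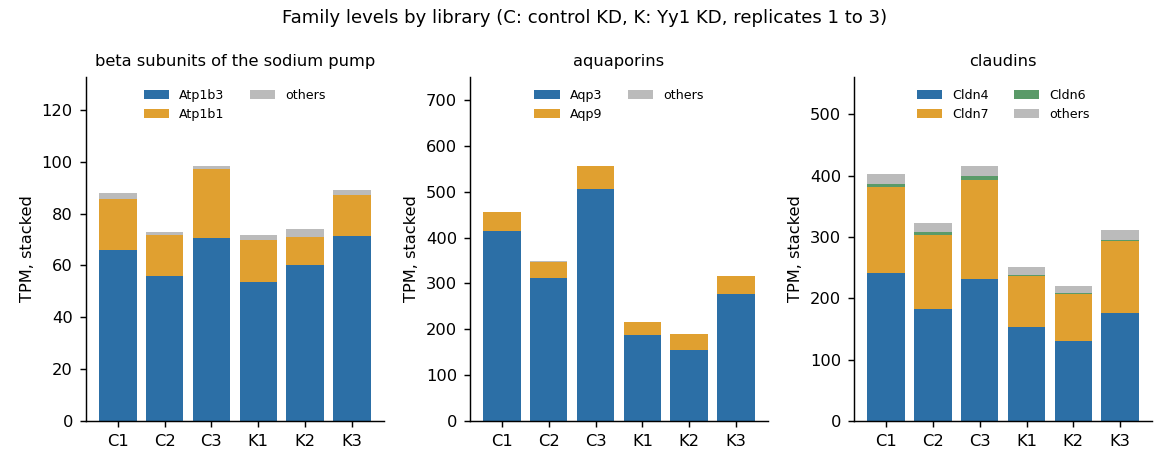
Stacked TPM (vertical axes) of beta subunits of the sodium pump, aquaporins and claudins in control KD (C1 to C3) and Yy1 KD (K1 to K3) libraries, with the named members in colour and all other genes of a family in grey. *Aqp3* fills 81.7% to 91.1% of each aquaporin bar, and the claudin bars of Yy1 KD (220 to 312 TPM) are shorter than those of control KD (322 to 415 TPM).

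By level, the members ranked as *Aqp3*, *Cldn4*, *Cldn7*, *Tjp1*, *Atp1b3*, *Aqp9*, *Atp1b1*, *Cldn6* and *Aqp8* in control KD. Neighbours in this order did not overlap in control KD, with the exception of *Cldn7* and *Tjp1*, where *Cldn7* was higher in 2 of 3 libraries. In Yy1 KD the ranges of *Cldn7* and *Tjp1* overlapped too, with *Cldn7* higher in 1 of 3 libraries, as did those of *Aqp3* and *Cldn4*, although *Aqp3* was higher in each library. By mean over the 6 libraries *Aqp3* stood above 97.4% of all genes tested, *Cldn4* above 95.4%, *Cldn7* above 92.5%, *Tjp1* above 92.2%, *Atp1b3* above 86.1%, *Aqp9* above 78.6%, *Atp1b1* above 64.4% and *Cldn6* above 28.5%.

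Libraries of a group differed in the same way for most members. In control KD, replicate 2 was the lowest of 3 in 7 of the 8 tested members, all except *Tjp1*, and replicate 3 the highest in 6, where 37.3% and 36.4% of all genes tested had that library lowest or highest. In Yy1 KD, replicate 2 was lowest in 6 members, all except *Aqp9* and *Atp1b3*, and replicate 3 highest in 5, beside 38.2% and 37.98% of all genes. The 9 members summed to 1056, 849 and 1172 TPM in control KD and to 629, 567 and 798 in Yy1 KD, so that the sums did not overlap. *Aqp3* was the largest part of each sum. Without it the sums were 641, 537 and 665 TPM in control KD and 442, 412 and 522 in Yy1 KD. The sums hold the same values as the single members and are no separate result. Read pairs on genes were 12519597, 24417789 and 18109905 in control KD replicates 1 to 3. They were 18674188, 12865988 and 11793509 in Yy1 KD replicates 1 to 3. The deepest control KD library thus had the lowest sum of its group, and the shallowest Yy1 KD library had the highest. The other ends did not match. The shallowest control KD library, replicate 1, did not have the highest sum, and the deepest Yy1 KD library, replicate 1, did not have the lowest. The part of depth in this spread was not tested.

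The likeness of other genes was measured by Pearson's r of log2(TPM + 1) over the 6 libraries, among 6592 genes averaging 10 TPM or more, as a description over libraries that share group and depth. The nearest to *Aqp3*, the member with the highest mean TPM, were *Cyp2s1* (r = 0.998), *Tmem209* (0.997) and *Mogs* (0.997). The nearest to *Cldn6*, the member with the largest change, were *Fkbp3* (0.993), *Cul4b* (0.992) and *Zwilch* (0.992), with log2 fold changes of -0.72, -0.74 and -0.69 (limma adjusted p = 0.0218, 0.0130 and 0.0385). Those of the genes nearest to *Aqp3* were -0.88, -0.62 and -0.66 (limma adjusted p = 0.0515, 0.0900 and 0.117). Since the 6 libraries hold both groups, genes chosen by this r share the group difference of the member by choice.

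Related genes were counted in 6 lists with 103 genes listed and 56 tested, of which 4 were downregulated and 0 upregulated, beside 4.2% and 1.92% of all genes tested, with a median log2 fold change of -0.09. An unadjusted p under 0.05 in either direction, which 23.8% of all genes had, occurred in 7 of 13 genes of adherens junctions, desmosomes and keratins, 4 of 18 other tight junction components, 2 of 15 regulators, 1 of 3 other claudins and 1 of 7 ion transport genes. Of ion transport genes with the sodium pump, 7 of 23 were tested and 0 called in either direction by limma or limma-voom, with a median of -0.01. *Slc12a2*, a cotransporter of sodium, potassium and chloride, was at 193, 117 and 186 TPM in control KD and at 85.9, 125 and 157 in Yy1 KD (log2 fold change -0.44, limma adjusted p = 0.381). *Slc9a3r1*, a scaffold for ion exchangers, was at 38.4 ± 6.5 and 37.9 ± 2.14 TPM (SD, n = 3 each).

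Of the other claudins, 3 of 19 were tested and *Cldn3* was downregulated. It was at 3.91, 4.54 and 2.93 TPM in control KD and at 0.923, 1.01 and 0.641 in Yy1 KD (log2 fold change -1.36, limma adjusted p = 0.0262), with 4 to 59 read pairs per library. *Cldn3*, a sealing claudin, lies 39279 nt from *Cldn4*. It met the condition for a test through control KD, where it is higher, since 1 Yy1 KD library reached 1 TPM. It was not called with no filter on low values (adjusted p = 0.0882), nor in any of the 6 fits that left out 1 library (adjusted p between 0.0656 and 0.0887). *Cldn9*, 137 nt from *Cldn6* on the opposite strand, was at 1.34, 1.28 and 3.34 TPM in control KD and 0.537, 2.39 and 1.12 in Yy1 KD (limma adjusted p = 0.642), and *Cldn12* at 5.60 ± 0.860 and 6.22 ± 0.976 TPM (SD, n = 3 each; adjusted p = 0.724).

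Of the other tight junction components, 18 of 19 listed were tested. *Tjap1*, which encodes a protein associated with tight junctions, was downregulated from 15.7, 16.0 and 18.8 TPM to 4.84, 2.77 and 7.28 TPM (log2 fold change -1.65, limma adjusted p = 0.0272), and it was called without Yy1 KD replicate 2 or 3 but not without any other library (adjusted p between 0.0332 and 0.1 over the 6 fits), and not with no filter on low values (0.0683). The other 17 were not called, 9 with a lower and 8 with a higher mean, and the median over the list was -0.05. The next 2 genes by adjusted p are named because of their values, and limma-voom called both lower and *Magi3* higher. *Ocln*, which encodes occludin of the junction strand, was at 61.4, 41.2 and 58.2 TPM in control KD and 23.4, 25.3 and 39.4 in Yy1 KD (adjusted p = 0.0804), and *Cxadr*, a junctional adhesion protein, was at 26.6 ± 5.48 and 14.3 ± 3.82 TPM (SD, n = 3 each; adjusted p = 0.0669). *F11r*, the junctional adhesion molecule JAM-A, was at 90.1 ± 12.3 and 88.5 ± 15.9 TPM (SD, n = 3 each; adjusted p = 0.932), and *Ybx3*, a junction-linked transcription factor, at 379 ± 5.91 and 320 ± 49.7 TPM (adjusted p = 0.224).

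Of 13 tested genes of adherens junctions, desmosomes and keratins, 1 was downregulated and the median was -0.27. *Ctnnb1*, beta-catenin of the cadherin complex, was at 145, 134 and 121 TPM in control KD and at 95.3, 88.6 and 92.1 in Yy1 KD (log2 fold change -0.53, limma adjusted p = 0.0257), and was called in 0 of the 6 fits without 1 library (adjusted p between 0.0575 and 0.0891) and not with no filter on low values (0.0562). limma-voom, which called 7.57% of all genes lower and 4.75% higher, called 4 lower (*Cdh1*, *Ctnna1*, *Ctnnb1* and *Dsg2*) and *Pkp2*, a desmosomal plaque gene, higher. *Cdh1*, E-cadherin itself, named after its values were seen, was at 210.3, 141 and 244 TPM and at 84.5, 109 and 149 TPM (adjusted p = 0.125). *Ctnna1*, alpha-catenin, was at 206 ± 16.1 and 171 ± 6.82 TPM (SD, n = 3 each; adjusted p = 0.107). The trophectoderm keratins were not called, with *Krt8* at 291 ± 61.8 and 211 ± 41.0 TPM (adjusted p = 0.231) and *Krt18* at 187 ± 22.3 and 193 ± 31.3 TPM (adjusted p = 0.889).

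Of 15 tested regulators of the trophectoderm epithelium, *Tfap2c* was downregulated and the median was -0.05. The factor, known for driving tight junction genes before cavity formation, was at 192, 179 and 180 TPM in control KD and at 135, 116 and 125 in Yy1 KD (log2 fold change -0.55, limma adjusted p = 0.0174), and it was called without Yy1 KD replicate 1 but not without any other library (adjusted p between 0.0346 and 0.0668 over the 6 fits). *Cdx2* and *Gata3*, lineage factors of the trophectoderm named for this role, were not called, with log2 fold changes of 0.00 and -0.14 (adjusted p = 0.995 and 0.684). *Klf5* was at 344 ± 21.9 and 334 ± 27.3 TPM and *Rhoa* at 139.5 ± 3.69 and 154 ± 5.91 TPM (SD, n = 3 each; adjusted p = 0.809 and 0.264).

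**Figure D4:**
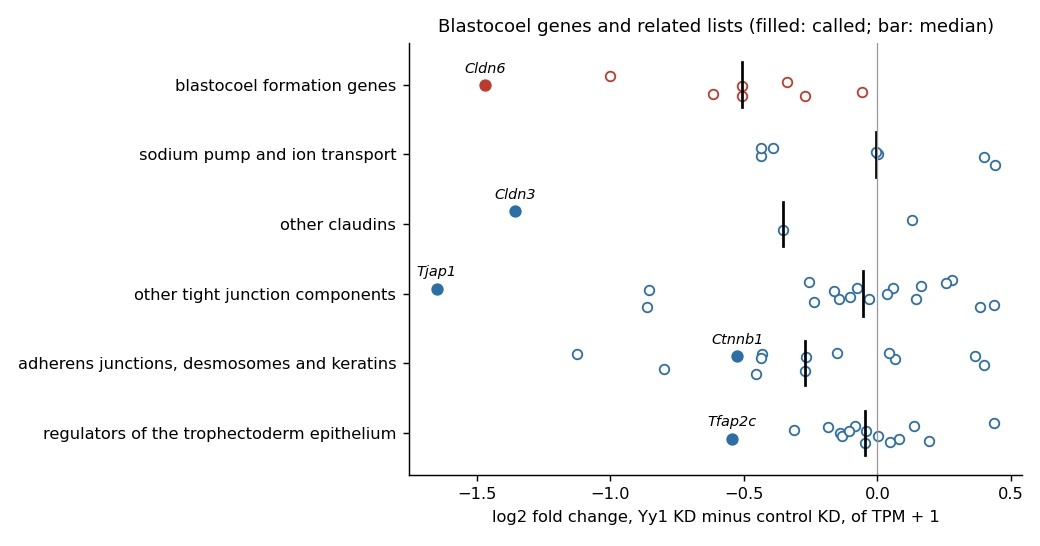
Log2 fold change (horizontal axis, Yy1 KD minus control KD on log2 of TPM + 1) of each tested gene in the blastocoel list (red) and 5 related lists (blue), with filled points for genes called at an adjusted p under 0.05 and a black bar at each list's median; the sixth list, other aquaporins, had 0 genes tested. The medians are -0.51 for the blastocoel genes and between -0.35 and -0.01 for the others, and all 5 filled points lie left of 0.

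Promoters were read from RefSeq (GRCm38.p6) as 250 bases before to 50 after each start. All 9 members matched, with 12 promoters among them. Starts other than these were not read. The windows of *Tjp1* (chr7:65371195-65371494) and *Aqp9* (chr9:71163240-71163539 and 71162584-71162883) lie inside the gene spans given above. The 5′ ends of those spans were therefore not covered. The consensus of YY1, AANATGGC or on the other strand GCCATNTT, was in 0 of the 12 windows and in 6.05% of all 32851 promoters. The TEAD motif, GGAATG or on the other strand CATTCC, was in 1 promoter each of *Cldn6*, *Cldn7* and *Aqp8*, and in 14.7% of all promoters. The TFAP2 motif GCCNNNGGC, which reads the same on both strands, was in 1 promoter each of *Tjp1* and *Atp1b3*, and in 16.6% of all promoters. A match is a run of letters and not a bound site, and a window without one says only that the letters are not there.

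The 4 matches in tested members are shown with their surroundings, 30 bases each, with the motif in capitals. Counted from the start as 1, with -1 just before it, they lie at positions -1 to 5 in *Cldn6* (chr17:23679352-23679381, plus strand), -70 to -65 in *Cldn7* (chr11:69964697-69964726, plus strand), and 35 to 43 in both *Tjp1* (chr7:65371195-65371224, minus strand) and *Atp1b3* (chr9:96364382-96364411, minus strand).
Cldn6 TEAD: tgcctccgccctCATTCCtactttcgacct
Cldn7 TEAD: aacctggggaggGGAATGttgggcgtgtcg
Tjp1 TFAP2: cgacggctctgcccGCCGACGGCacgtctc
Atp1b3 TFAP2: cggccgcggtgcgcGCCAGCGGCgcgggga

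The promoters differed in base composition. CpG counts per 300 bases were 31 in *Atp1b1*, 34 and 39 in the 2 promoters of *Atp1b3*, 31 in *Tjp1* and 21 in *Aqp3*, and 9 in *Cldn4*, 10 in *Cldn6*, 7 and 17 in *Cldn7*, 6 in *Aqp8* and 1 and 4 in *Aqp9*, beside a median of 7 over all promoters. The members with more CpG included both the least and one of the most different genes between the groups, *Atp1b3* and *Aqp3*.

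Across the processing alternatives the direction changed less often than the call. The other filters and the replicate block leave a fold change as it is, so they could not turn a direction. All alternatives reuse the same libraries. In 7 of the 8 tested members the Yy1 KD level was lower under each alternative, *Atp1b3* being the exception. limma-voom on the recovered read pairs called 5 members lower, *Aqp3*, *Tjp1*, *Cldn4*, *Cldn6* and *Cldn7*, where it called 7.57% of all genes lower.

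**Figure D5:**
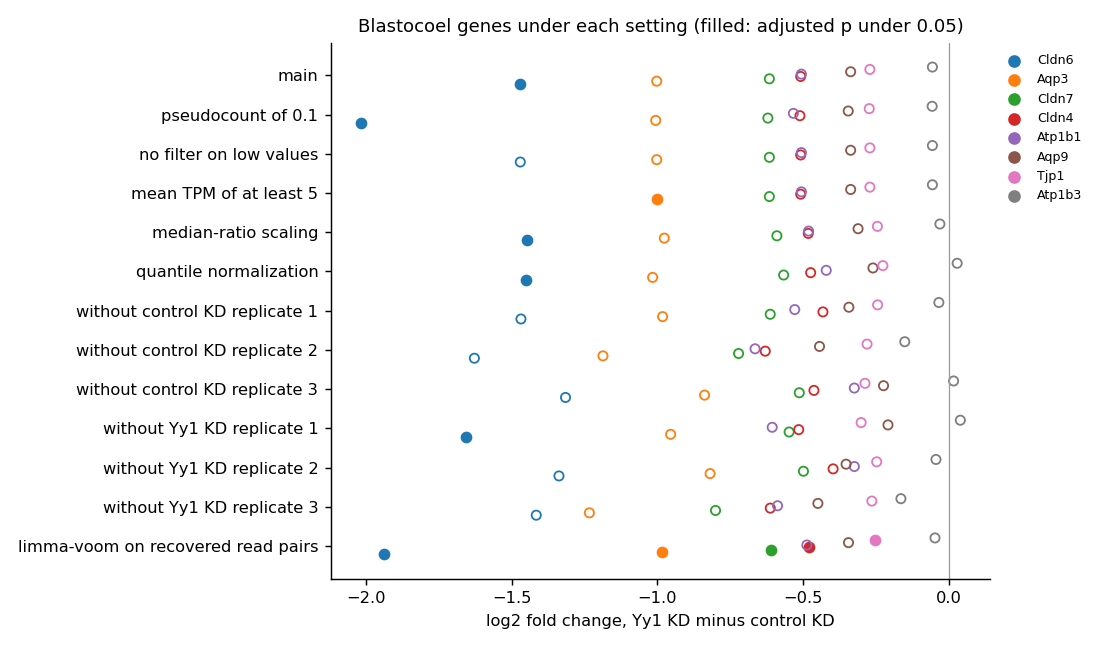
Log2 fold change (horizontal axis, Yy1 KD minus control KD) of the 8 tested blastocoel genes, 1 colour each, under the main test and 12 of the 13 alternatives (vertical axis, the replicate block not drawn), with filled points for an adjusted p under 0.05. *Cldn6* moves most, from -1.31 to -2.02, *Atp1b3* crosses 0, and the largest number of filled points, 5, stands in the row of limma-voom.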

How the data were processed

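Total RNA of 6 pools of morulae was sequenced from SMART-Seq Stranded libraries. According to the methods and the submitters' processing notes, the authors removed 3 bases of read 2 with Trim Galore (0.6.7), aligned read pairs to mm10 with HISAT2 (2.2.1), removed ribosomal RNA reads with bedtools, counted pairs per GENCODE vM25 gene with featureCounts (2.0.1; strand ignored, shared pairs divided) and deposited TPM per gene and library. The authors tested counts with another tool; TPM is no count, so limma (3.58.1, R 4.3.3) with a variance trend was fitted here to log2(TPM + 1) over the 17353 genes that reached 1 TPM in 3 or more libraries, with Benjamini-Hochberg adjustment and calls at an adjusted p under 0.05. ± gives the SD. Exact permutation tests were two-sided.

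Exon lengths and coordinates came from GENCODE vM21, which matched 99.5% of identifiers. Read pairs were recovered as TPM times length over the value of 1 pair, and between 88.98% and 90.9% of low values in genes without overlap were whole within 0.01. Samples were grouped by their titles, and the fit was tested on simulated data. The members, lists, motifs and named genes (all members; called genes and the 3 most abundant of each pathway list; the 2 most abundant of marker lists where named) were chosen with earlier results of these data known. Alternatives were a pseudocount of 0.1, other filters, scalings, a replicate block, each library left out, and limma-voom. Protein sequences were not used here. Some genes that this rule names are not reported here. Python 3.11.15, pandas 2.3.3 and matplotlib 3.10.9 made tables and figures.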

Additional observations from a re-analysis of the deposited data

How the results depend on the processing

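Of 103 fold changes of members under 13 alternatives, 87 kept direction and side of the threshold and 3, all of *Atp1b3*, changed sign (0.0286 with quantile normalization, 0.0163 without control KD replicate 3 and 0.0394 without Yy1 KD replicate 1). The fold change of *Atp1b3* ranged from -0.164 to 0.0394 with 1 library left out. The other filters and the replicate block leave fold changes as they are, so under them only the side of the threshold could move. *Aqp3* passed the threshold with a mean TPM of at least 5 (-1.0) and with limma-voom (-0.98), as did *Tjp1* (-0.25), *Cldn4* (-0.48) and *Cldn7* (-0.61) with limma-voom. *Cldn6* lost its call with no filter (-1.47, adjusted p = 0.0885) and could not be tested with a mean TPM of at least 5. Leaving out 1 library each gave fold changes of -1.66 to -1.31 for *Cldn6*, with the call kept without Yy1 KD replicate 1 alone, and 0 to 1 members, 22 to 92 upregulated and 53 to 326 downregulated genes called. In the full set these were 1, 333 and 728. No filter on low values called 0 members, 77 upregulated and 270 downregulated genes, and limma-voom 5, 804 and 1281. The share of downregulated genes among calls was 68.6%, 58.5% with quantile normalization (548 of these genes beside 388 upregulated), 77.8% with no filter, 76.0% with the replicate block and 65.7% to 80.1% with 1 library left out. The cause of these differences was not tested, other than that a library less leaves fewer samples. With the replicate block, *Aqp3* was called (-1.0, adjusted p = 0.0357) and *Cldn6* was not (-1.47, adjusted p = 0.0667), and 69 genes were upregulated and 218 downregulated. *Cldn3* (adjusted p = 0.0659) and *Ctnnb1* (0.0636) were not called with the block. The labels do not say whether the replicate numbers pair the samples. Deviations of same-numbered libraries from their group means correlated at -0.00, 0.03 and 0.07 across genes. Control KD replicates 2 and 3 correlated best with their own number, and control KD replicate 1 did not. Such weak correlations over all genes cannot decide whether same-numbered pools were collected together, which was not tested. Depth limits *Cldn6* and *Aqp8*.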
